A study of Mus musculus with 7 samples.

Results

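The 101 genes described here encode the machinery of oxidative phosphorylation. They were taken from the table of all genes by name, as symbols starting with Nduf, Uqcr, Cox4 to Cox8 or Atp5, the 4 Sdh subunits and Cycs, together with every gene listed on the mitochondrial genome. Of 107 genes that matched, 101 reached 0.37 RPM (a read count divided by library depth) in at least 2 libraries, out of 34245 listed and 16212 tested. The nuclear genome holds 88 of them and the mitochondrial genome 13. The level used reads from all 7 libraries without regard to group. RNA was sequenced from whole islets, the endocrine clusters of the pancreas, of C57BL/6J mice at 8 weeks of age. The KO group held 5 libraries from mice whose floxed Abca12, which encodes an ABC transporter of lipids, had been deleted by Rip1-Cre (the tm1d allele). The Control group held 2 libraries: by the sample descriptions and the study design, Control 1 carried the Cre with wild-type Abca12 and Control 2 was heterozygous for the floxed allele with the Cre. Rip1-Cre was thus present in every mouse, and no library came from islets without it. Its promoter is that of the rat insulin gene, which drives expression in beta cells, while the islets sequenced also held other cell types. The letter at the end of the column headers marks KO 1 and KO 2 as female and the other 5 libraries as male.

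In oxidative phosphorylation, complexes I and II pass electrons from NADH and succinate to coenzyme Q, complex III hands them to cytochrome c, and complex IV gives them to oxygen. Complexes I, III and IV pump protons across the inner mitochondrial membrane, and complex V, the ATP synthase, uses their return to make ATP. Complexes I, III, IV and V are built from subunits of both genomes, whereas complex II and cytochrome c are wholly nuclear. In beta cells, ATP made this way closes potassium channels and so links glucose to insulin release.

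The 13 mitochondrial genes encode proteins, and a stretch of mouse chromosome 1 carries a nuclear copy of part of the mitochondrial genome that is annotated as 7 pseudogenes in GENCODE M21 (GRCm38). The following stretches are shown because reads from the gene and from its copy can be told apart only at the letters that differ, which are in capitals. They were read from the GENCODE transcripts, 5′ to 3′, with both on the strand of the gene.
mt-Co2, the start of the gene, MT:7013-7072, plus strand: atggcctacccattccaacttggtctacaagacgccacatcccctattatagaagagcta
Gm28661, its copy, chr1:24615506-24615565, minus strand: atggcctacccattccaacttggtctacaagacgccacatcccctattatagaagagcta
mt-Nd3, the start of the gene, MT:9459-9518, plus strand: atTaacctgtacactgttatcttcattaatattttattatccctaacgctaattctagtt
Gm28438, its copy, chr1:24613060-24613119, minus strand: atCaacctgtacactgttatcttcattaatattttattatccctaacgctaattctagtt
mt-Co1, where its copy begins, MT:6381-6440, plus strand: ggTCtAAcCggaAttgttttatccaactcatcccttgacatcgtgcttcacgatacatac
Gm29216, its copy, chr1:24616138-24616197, minus strand: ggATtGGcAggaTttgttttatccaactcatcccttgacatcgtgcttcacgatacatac
The mt-Co2 stretch was the same in both places, and the whole of Gm28661 matched mt-Co2 with 0 mismatches over 681 bases. The copies of mt-Atp6, mt-Co3, mt-Nd4l and mt-Nd4 also had 0 mismatches, over 678, 783, 294 and 876 bases. The copy of mt-Nd3 had 1 mismatch in 345 bases. All 6 mismatches of Gm29216 over its 492 bases of mt-Co1 lay in the stretch shown. The 7 pseudogenes could not be among the genes described here, which were chosen by name or by listing on the mitochondrial genome. Whether reads were counted for the 7 pseudogenes themselves is not shown here.

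Abca12 itself had 0 reads in all 7 libraries, controls included, so it checks no label; the limit that 3 reads set lay between 0.0696 and 0.125 RPM. The libraries implied 23922958 to 43117317 reads, of which 13335960 to 24590888 fell in listed genes, and each was scaled to its own depth. Islet hormones dominated as the tissue label says, with beta cell markers at a summed 59671 to 88163 RPM. All 15 listed acinar markers, genes of the digestive enzyme cells around the islets, stood above both controls in every KO library, with sums of 416 to 857 RPM in the controls and 1755 to 10747 RPM in KO. The 7 endothelial markers had lower KO means, and their sum was 185 to 214 RPM in the controls and 114 to 169 RPM in KO. Of the 10 beta cell markers, 8 had a lower KO mean, with a median log2 fold change of -0.11. All 6 alpha cell markers (median 0.46) and all 5 markers of delta and PP cells (median 0.55) had higher KO means. The 7 tested stellate and fibroblast markers all had lower KO means (median -0.88), and their list summed to 117 RPM in Control 2 against 29.3 to 41.6 RPM in the other libraries. The part of these shifts in the results below was not tested. In bulk RNA, fewer cells of a type and less RNA per cell cannot be told apart.

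No oxidative phosphorylation gene passed the test between KO and Control. Of the 101 genes, 0 were called by limma with a Benjamini-Hochberg adjusted p under 0.05, where 0.0617% of all 16212 genes tested were called (7 or 0.0432% higher and 3 or 0.0185% lower in KO). At an unadjusted p under 0.05 there were 3 nuclear genes, all higher in KO, and 0 mitochondrial genes, against 10.8% of all genes tested (4.64% higher and 6.16% lower). The smallest adjusted p from limma was 0.429 among nuclear and 0.557 among mitochondrial genes. The 95% intervals of the fold change, not adjusted for the number of genes, lay within 1.5-fold in either direction for all 13 mitochondrial genes and for 87 of the 88 nuclear genes. The exception was Ndufaf6, whose lower bound was -0.62 on the log2 scale. Fold changes are on the log2(RPM + 1) scale, which understates those of low genes. The authors' deposited table of 136 selected genes held 0 of the 101.

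The nuclear genes leaned slightly upward and the mitochondrial genes slightly downward. Of the 88 nuclear genes, 66 had a higher mean in KO and 22 a lower one, with a median log2 fold change of 0.07 and a range of -0.30 to 0.28. Of all genes tested, 48.3% had a log2 fold change above 0 and 51.7% one below it, and their median was -0.01. Of the 13 mitochondrial genes, 3 were higher and 10 lower in KO, with a median of -0.06 and a range of -0.23 to 0.12. The mitochondrial direction turned in males alone (median 0.02, 5 of 13 lower) and with the acinar markers as a covariate (0.06, 5 of 13 lower). Sex as a covariate gives the same fold changes as males alone by design, since both females were KO, so it adds no separate result.

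The libraries of the KO group did not move together. Relative to the control mean, the median nuclear gene stood at 0.08, 0.01, -0.05, 0.07 and 0.21 (log2) in KO 1 to KO 5, and at -0.02 and 0.02 in the 2 controls. The median over all genes tested stood at 0.04, -0.01, -0.07, 0.01 and -0.01 in KO 1 to KO 5, so parts of these shifts were shared by all genes. KO 5 was the highest of the 7 libraries for 63 of the 88 nuclear genes (71.6%), while it was the highest for 2108 of the 16212 genes tested. KO 3 was the lowest library for 28 of the 88 (31.8%), and for 3421 of the 16212 genes tested (21.1%). Without KO 5 the nuclear median fell to 0.03, with 59 of 88 genes above 0. With the acinar markers as a covariate it was 0.24. Those markers stood above both controls in every KO library, so this fit cannot cleanly separate them from the group. The median mitochondrial gene stood at -0.20, -0.16, -0.04, 0.03 and 0.11 in KO 1 to KO 5, so KO 1 was above the control mean in nuclear genes and below it in mitochondrial genes.

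**Figure D1:**
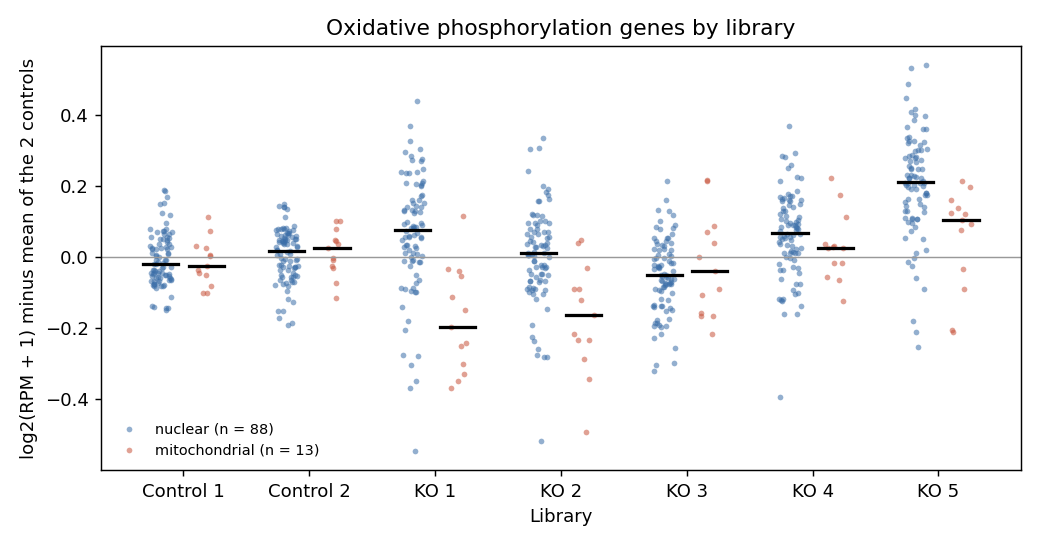
Each point is 1 gene in 1 library, as log2(RPM + 1) minus the mean of the 2 controls, for 88 nuclear (blue) and 13 mitochondrial (red) genes, with horizontal spread for legibility; the bars are medians. The nuclear median is highest in KO 5 (0.21), and the mitochondrial medians of KO 1 and KO 2 (-0.20 and -0.16) lie below those of the other libraries.

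Complex I, the NADH dehydrogenase, had 36 nuclear subunits tested, of which 26 were higher in KO, with a median log2 fold change of 0.06. Its 7 core subunits, which carry the flavin and the iron-sulfur clusters, had a median of 0.03 (5 higher), and the 29 accessory subunits a median of 0.07 (21 higher). Ndufb2, an accessory subunit of the membrane arm, had the largest positive difference of the nuclear genes. It stood at 26.5 and 20.1 RPM in Control 1 and Control 2 and at 30.1, 24.2, 26.97, 28.4 and 31.9 RPM in KO 1 to KO 5. The groups overlapped, since KO 2 lay between the controls, and the log2 fold change of 0.28 (SE 0.12) had a limma adjusted p of 0.429. Ndufs4, an accessory subunit of the matrix arm needed for a stable NADH-binding module (chromosome 13, 114287795 to 114388258, minus strand), stood at 19.8 and 22.1 RPM in the controls. Its KO libraries were at 24.3, 22.7, 22.5, 23.4 and 28.1 RPM, all above both controls. The log2 fold change was 0.20 (SE 0.10), with a limma adjusted p of 0.500.

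Other accessory subunits with the smaller p-values overlapped between groups. Ndufa2 was at 34.8 and 36.7 RPM against 36.1 to 50.6 RPM in KO (log2 fold change 0.21), and Ndufa1, encoded on the X chromosome, at 29.2 and 35.7 against 33.6 to 43.5 RPM (0.18). Ndufb10 was at 30.3 and 33.1 RPM against 31.3 to 39.99 RPM (0.17), and Ndufc2 at 53.8 and 43.5 against 48.6 to 59.9 RPM (0.18). KO 5 was the highest library for Ndufa2, Ndufa1 and Ndufc2, and KO 1 for Ndufb10. Ndufa12, an accessory subunit of the matrix arm, was at 19.9 and 18.9 RPM against 14.8 to 21.7 RPM (-0.08).

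The assembly factors of complex I, which help to build the complex and are no part of it, split evenly. Of the 8 with an Ndufaf name, 4 were higher and 4 lower in KO, with a median of -0.01. Ndufaf6, which acts on the membrane arm around the mitochondrial subunit ND1, had the largest negative difference of the nuclear genes. Its level was 3.09 and 3.04 RPM in the controls and 2.30, 1.84, 2.26, 2.75 and 2.41 RPM in KO 1 to KO 5 (log2 fold change -0.30, SE 0.15, limma adjusted p 0.494). Ndufaf5, which modifies a core subunit, was at 5.14 and 5.21 RPM in the controls and at 4.10, 4.28, 4.02, 3.70 and 5.13 RPM in KO (-0.24, SE 0.14, limma adjusted p 0.575). Every KO library lay below both controls for both genes, although KO 5 nearly reached Control 1 for Ndufaf5. Ndufaf3, another early factor, was at 11.5 and 11.3 RPM against 9.50 to 11.7 RPM (-0.09). Both separated genes were low, with 49 to 104 reads per library for Ndufaf6 and 101 to 221 for Ndufaf5.

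Across the 88 nuclear genes, the KO libraries all lay above both controls in 3 (Uqcrc1, Ndufs4 and Sdhb) and all below both in 2 (Ndufaf5 and Ndufaf6). Over all genes tested this separation occurred in 15.2%, with 6.75% higher and 8.41% lower. The nuclear share of 5.68% was thus below the share in all genes.

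Complex II, the succinate dehydrogenase of the citric acid cycle, had 2 of 4 subunits higher and a median of 0.02. Sdhb, its iron-sulfur subunit (chromosome 4, 140961203 to 140979193, plus strand), stood at 42.7 and 41.98 RPM in the controls and at 48.9, 43.4, 43.0, 42.9 and 54.9 RPM in KO. All KO libraries were above both controls, but KO 2, KO 3 and KO 4 were so by less than 1 RPM. Its log2 fold change was 0.13 (SE 0.10), with a limma adjusted p of 0.686. Sdha, the flavoprotein, was at 131 and 121 RPM against 108 to 131 RPM (-0.07).

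Complex III, the cytochrome bc1 complex, had all 8 of its nuclear subunits higher in KO, with a median of 0.09 and none called. Uqcrc1, a core subunit of the matrix side (chromosome 9, 108936633 to 108949623, plus strand), was the clearest of them. It stood at 71.5 and 72.4 RPM in the controls and at 83.3, 76.1, 76.1, 81.99 and 83.3 RPM in KO 1 to KO 5. The group means were 72.0 ± 0.65 (SD, n = 2) and 80.2 ± 3.76 RPM (SD, n = 5), a log2 fold change of 0.15 (SE 0.07) with an unadjusted p of 0.0435 and an adjusted p of 0.441, both from limma. Under the 22 alternatives tried it was not called, and the fold change stayed within 0.13 to 0.29 (log2). Uqcrq, a small subunit, had the most reads per kilobase of the nuclear genes, at 222 RPM per kilobase in Control and 239 in KO. It was at 85.6 and 94.2 RPM in the controls and at 88.9 to 113 RPM in KO (0.10).

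**Figure D2:**
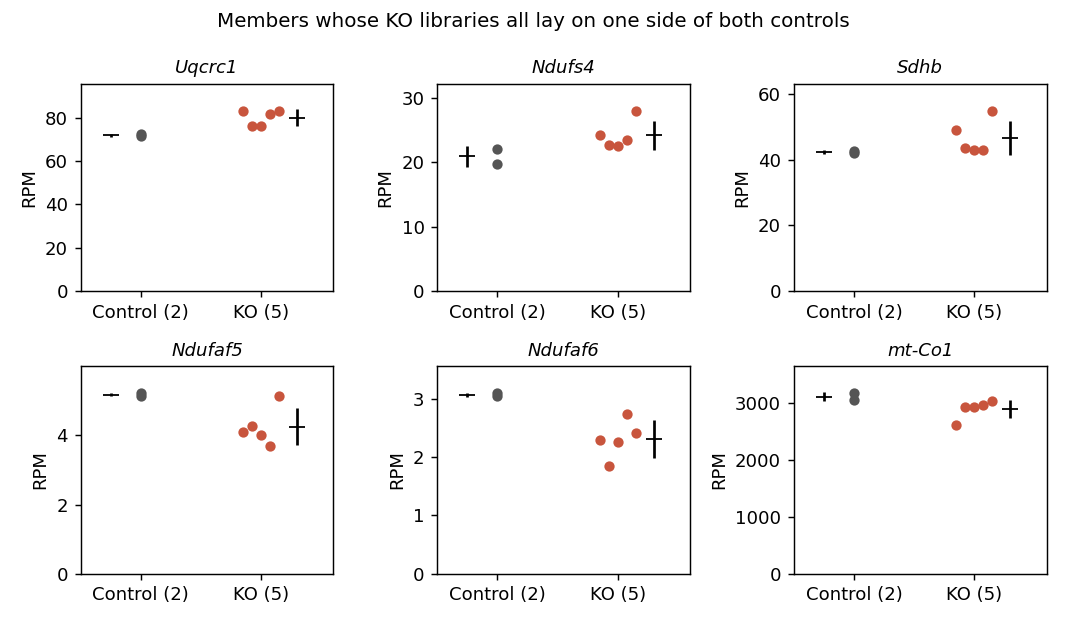
RPM in each library for the 6 genes whose 5 KO libraries (red) all lay on 1 side of both Control libraries (grey); the crosses are mean ± SD per group and each axis starts at 0. Uqcrc1, Ndufs4 and Sdhb were higher in KO and Ndufaf5, Ndufaf6 and mt-Co1 lower, with limma adjusted p between 0.441 and 0.817.

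Complex IV, cytochrome c oxidase, had 14 nuclear genes that reached the level, of which 12 were higher in KO, with a median of 0.09. They were assigned by name and take in Cox7a2l and Ndufa4l2, so not each need be a subunit. Cox6c was at 41.4 and 34.99 RPM in the controls and at 47.3, 47.3, 37.3, 44.7 and 50.5 RPM in KO, where KO 3 lay between the controls (0.24, SE 0.11, limma adjusted p 0.447). Cox4i1, a large nuclear subunit, was at 90.7 and 84.5 RPM against 85.6 to 110 RPM in KO (0.15, limma adjusted p 0.574).

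Several complex IV subunits have isoforms used in particular tissues, and the general forms prevailed in these islets. Cox4i1 was at 118 and 131 RPM per kilobase in Control and KO, and Cox4i2, a form known from lung, did not reach the level, with 39 reads in all 7 libraries. Cox6b1 was at 47.9 and 49.97 RPM against 48.1 to 64.7 RPM (0.15), and Cox6b2, a testis form, had 16 reads in all. Cox7a2 was at 37.9 and 42.2 RPM against 41.5 to 49.5 RPM (0.13). Its muscle form Cox7a1 had 54 reads and lay just outside the level, with a second highest library of 0.345 RPM. Cox7b was at 42.2 and 45.1 RPM against 38.3 to 49.6 RPM (0.01), and Cox7b2 had 1 read in all. Cox8a was at 58.2 and 65.0 RPM against 58.8 to 74.3 RPM (0.10), while Cox8b and Cox8c had 0 reads.

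The exception was Cox6a2, the heart and skeletal muscle form of subunit 6a, which was present beside the general form. It was at 7.36 and 6.87 RPM in the controls and at 4.56, 7.70, 6.31, 6.26 and 8.84 RPM in KO, on both sides of the controls (-0.09). The level was 10.5 RPM per kilobase in Control and 9.90 in KO, against 127 and 141 for Cox6a1. Cox6a1 was at 70.1 and 75.04 RPM against 71.9 to 91.1 RPM (0.14). The 8 markers of heart and skeletal muscle summed to 0.752 to 1.43 RPM per library. Of them 2, Myh6 and Myh7, had no reads, and 2 had reads in every library. Acta1, the 1 that was tested, ranged from 0.192 to 0.939 RPM. Ndufa4, counted here with complex IV, was at 61.0 and 62.5 RPM against 59.1 to 70.7 RPM (0.06). Its relative Ndufa4l2, known from hypoxic cells, lay just inside the level, with 95 reads in all and a range of 0.209 to 0.806 RPM (0.05).

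Complex V, the ATP synthase, had 12 of 15 nuclear subunits higher and a median of 0.07. Its catalytic pair differed little. Atp5b, the beta subunit, was at 418 and 387 RPM against 392 to 427 RPM (0.03), and Atp5a1, the alpha subunit, at 367 and 343 against 336 to 388 RPM (0.04). Both fold changes turned to -0.02 and -0.01 without Control 2. Among small subunits, Atp5e was at 54.2 and 50.1 RPM against 49.97 to 67.1 RPM (0.17), and Atp5k at 16.3 and 16.97 against 15.8 to 24.6 RPM (0.19). KO 5 was the highest library for both. Cycs, the electron carrier cytochrome c, was at 37.7 and 31.5 RPM against 32.7 to 38.5 RPM (0.07). Atp5s and Atp5sl match the name pattern but are not subunits of the synthase, and their log2 fold changes were 0.00 and -0.05.

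**Figure D3:**
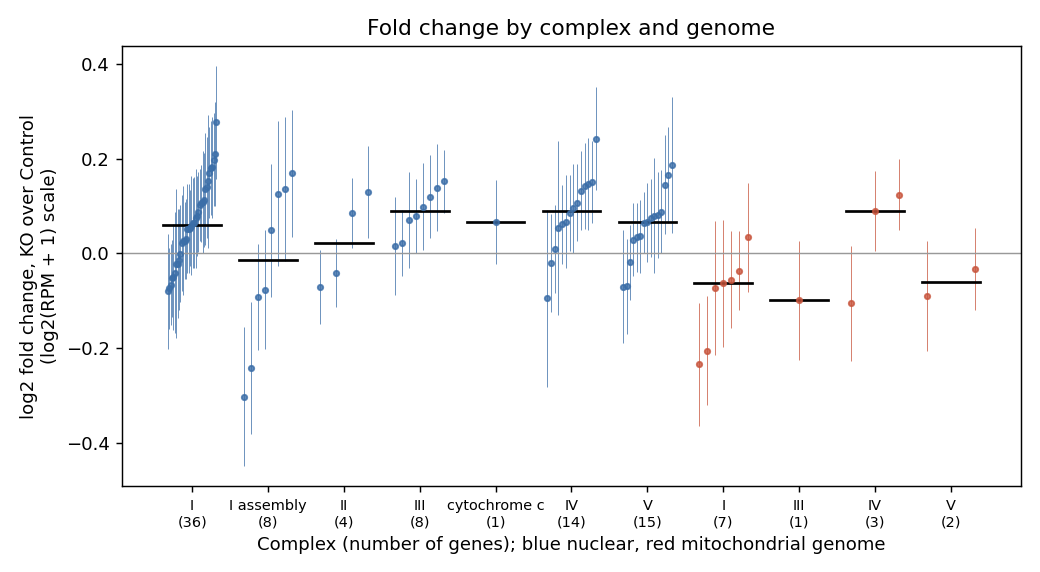
Log2 fold change of KO over Control for each gene by complex, on the log2(RPM + 1) scale, with nuclear genes in blue and mitochondrial genes in red; the vertical lines are ± 1 SE and the black bars are medians, and Atp5s and Atp5sl are left out. All 8 nuclear subunits of complex III lie above 0, and 10 of the 13 mitochondrial genes lie below it.

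The 13 mitochondrial messenger RNAs covered 4 complexes. Of the 7 complex I subunits, 6 were lower in KO, with a median of -0.06. mt-Nd4l had the largest difference, with 14.3 and 12.1 RPM in the controls and 10.95, 9.05, 11.2, 12.97 and 11.2 RPM in KO (-0.23, SE 0.13, limma adjusted p 0.557). mt-Nd5 was at 1535 and 1529 RPM in the controls and at 1204, 1209, 1375, 1561 and 1324 RPM in KO (-0.21, SE 0.12, limma adjusted p 0.562). KO 4 was above both controls for mt-Nd5, so the groups overlapped. mt-Nd1 was at 992 and 1109 RPM against 936 to 1129 RPM (-0.06), mt-Nd2 at 786 and 753 against 624 to 899 RPM (-0.07), and mt-Nd4 at 631 and 725 against 524 to 764 RPM (-0.06). mt-Nd3 was at 8.99 and 8.02 RPM against 7.93 to 9.44 RPM (0.03). mt-Nd6, the gene of the opposite strand, was at 483 and 479 RPM against 428 to 524 RPM (-0.04).

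The catalytic subunit of complex IV, mt-Co1 (MT, 5328 to 6872, plus strand), was the most abundant of the 100 genes with a transcript length, per kilobase, with 2012 RPM per kilobase in Control and 1873 in KO. It stood at 3052 and 3165 RPM in the controls and at 2616, 2923, 2919, 2971 and 3038 RPM in KO. It was the single mitochondrial gene of the 13 (7.69%) whose KO libraries all lay below both controls, where 8.41% of all genes did. KO 5 missed Control 1 by less than 1% and the log2 fold change was -0.11 (SE 0.12, limma adjusted p 0.817). mt-Co2 was at 57.3 and 61.1 RPM against 60.3 to 68.8 RPM (0.12), and mt-Co3 at 41.97 and 44.99 against 42.3 to 50.6 RPM (0.09). mt-Cytb, the mitochondrial subunit of complex III, was at 1377 and 1586 RPM against 1177 to 1557 RPM (-0.10). The complex V genes mt-Atp6 and mt-Atp8 were at 41.9 and 44.1 against 39.4 to 46.9 RPM (-0.03), and at 10.7 and 10.3 against 8.79 to 11.2 RPM (-0.09).

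Levels per kilobase fell in 2 ranges, and 6 genes that lie within the stretch copied on chromosome 1 made up the lower range. These were mt-Co2, mt-Atp8, mt-Atp6, mt-Co3, mt-Nd3 and mt-Nd4l. They stood at 22.8 to 101 RPM per kilobase over the 7 libraries, and the other 7 genes at 380 to 2049. The 6 made up 1.88% to 2.26% of mitochondrial RPM. Of the 50-base windows of mt-Co2, mt-Co3, mt-Atp6, mt-Nd4l and mt-Nd3, 98.0% to 100% had an exact copy in the transcript of another gene. For mt-Atp8 the share was 0%, because it falls between annotated copies and was placed here by position. The share was 62.2% for mt-Nd4 and 51.1% for mt-Co1, 8.19% for mt-Nd2, 7.61% for mt-Nd5, and 0% for mt-Nd1, mt-Nd6 and mt-Cytb. How reads that match both places were counted is not given in the sources used here, and its part in these levels was not tested. The order of levels among these genes is therefore uncertain. The 6 copied genes had a median log2 fold change of 0.00 (3 higher), and the other 7 were all lower in KO, with a median of -0.07. Of those 7, mt-Nd1, mt-Nd2, mt-Nd4 and mt-Cytb were higher in KO when males alone were compared. mt-Nd6 overlaps mt-Nd5 on the other strand, and mt-Atp8 and mt-Nd4l overlap mt-Atp6 and mt-Nd4, so some of their reads may be shared.

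**Figure D4:**
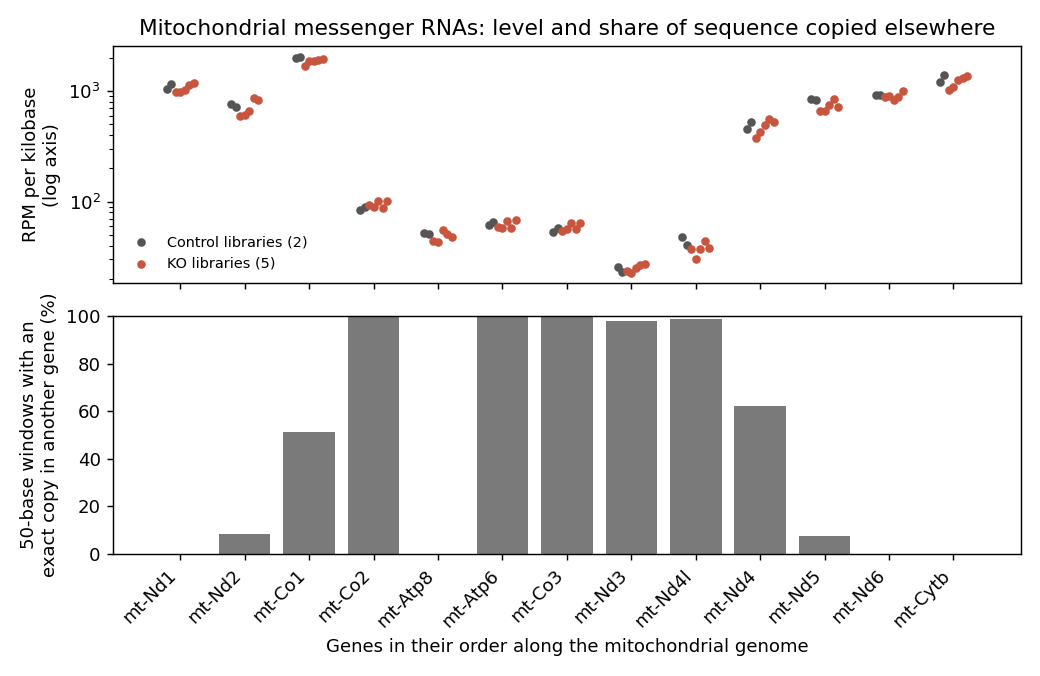
Top, RPM per kilobase on a log axis of the 13 mitochondrial genes in the 2 Control (grey) and 5 KO (red) libraries; bottom, percent of the 50-base windows of each with an exact copy in another annotated transcript. The 5 genes at 98.0% or more and mt-Atp8, which lies between annotated copies, stand at 22.8 to 101 RPM per kilobase, and the other 7 at 380 to 2049.

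Summed over each genome, the contrast was small and did not separate the groups. Nuclear genes summed to 4133 and 4105 RPM in the controls and to 4355, 4148, 3977, 4306 and 4741 RPM in KO. Mitochondrial genes summed to 9032 and 9526 RPM in the controls and to 7729, 8179, 8693, 9418 and 9350 RPM in KO. The log2 ratio of mitochondrial to nuclear reads was 1.13 and 1.21 in the controls and 0.83, 0.98, 1.13, 1.13 and 0.98 in KO. KO 3 and KO 4 lay at the level of Control 1, and the KO mean was lower by 0.16 (1.01 ± 0.13, SD, n = 5, against 1.17 ± 0.06, SD, n = 2). Without the 6 genes in the chromosome 1 copy the difference was -0.17. Within complexes, the ratio for complex IV was 2.32 and 2.33 in the controls and 1.98, 2.18, 2.28, 2.16 and 2.02 in KO, below both controls in each KO library. Its mitochondrial side was mostly mt-Co1, with 3052 and 3165 of 3152 and 3271 RPM in Control 1 and Control 2. The log2 fold changes of mt-Co2 (0.12) and mt-Co3 (0.09) were above 0, so this ratio does not speak for all 3 genes. The ratios for complexes I, III and V overlapped between groups. These sums were chosen with the results known and are given without a test.

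Mitochondrial levels were lowest in KO 1 and KO 2, the female libraries. All 13 mitochondrial genes had a lower mean in KO 1 and KO 2 than in the 3 male KO libraries, by a median of 0.17 on the log2 scale. In 7 of the 13 (53.8%) both female libraries lay below all 5 male libraries, where 4.61% of all genes tested and 1 of the 88 nuclear genes did so. The largest of these differences were -0.38 for mt-Nd4 and -0.37 for mt-Nd2. The 13 genes lie on the same genome and may move together, so their counts are not 13 separate results. With males alone, 2 Control and 3 KO, the mitochondrial median was 0.02 with 5 of 13 genes lower in KO, and the log2 ratio of the genomes differed by -0.09. The nuclear median on the same libraries was 0.07, with 72 of 88 higher. Both controls were male, so a difference between KO and Control in females cannot be measured here, and sex cannot be told apart from other traits of those 2 mice.

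The nuclear genes share short transcripts. Their median length was 780 bases, against 2823 for all protein-coding genes tested. The 53 nuclear genes under 1000 bases had a median log2 fold change of 0.08 (43 higher), and all 1093 protein-coding genes of that length had a median of 0.05 (693 higher). The 34 of 1000 bases or more had a median of 0.04 (23 higher), against -0.01 for all 12757 such genes. In KO 5, where nuclear levels were highest, the median deviation was 0.27 for the short oxidative phosphorylation genes and 0.16 for all short protein-coding genes. Length thus moved with the result, and its part was not tested. Nuclear genes also have copies elsewhere in the genome. The median log2 fold change was 0.06 for the 56 with under 10% of windows copied and 0.07 for the 31 with more.

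Promoters of 300 bases from RefSeq (GRCm38.p6), 250 before and 50 after the start, were matched for 74 of the 88 nuclear genes. Those shown are examples that held a motif, from the separated genes Uqcrc1 and Ndufs4 and from Ndufb2, with the motif in capitals, 5′ to 3′ on the strand of the gene.
Uqcrc1, chr9:108936398-108936697, plus strand: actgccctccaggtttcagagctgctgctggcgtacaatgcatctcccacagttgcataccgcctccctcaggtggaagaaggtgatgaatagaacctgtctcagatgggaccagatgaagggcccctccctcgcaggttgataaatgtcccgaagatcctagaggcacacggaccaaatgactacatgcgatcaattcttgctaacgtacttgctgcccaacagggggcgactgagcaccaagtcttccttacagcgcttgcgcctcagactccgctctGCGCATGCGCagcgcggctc
Ndufs4, chr13:114388045-114388344, minus strand: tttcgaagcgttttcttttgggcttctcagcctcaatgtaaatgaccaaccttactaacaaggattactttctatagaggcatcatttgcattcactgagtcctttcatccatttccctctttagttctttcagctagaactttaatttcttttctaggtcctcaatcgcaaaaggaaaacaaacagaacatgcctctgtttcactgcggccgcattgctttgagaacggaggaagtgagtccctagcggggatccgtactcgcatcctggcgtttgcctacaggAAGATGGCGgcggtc
Ndufb2, chr6:39592315-39592614, plus strand: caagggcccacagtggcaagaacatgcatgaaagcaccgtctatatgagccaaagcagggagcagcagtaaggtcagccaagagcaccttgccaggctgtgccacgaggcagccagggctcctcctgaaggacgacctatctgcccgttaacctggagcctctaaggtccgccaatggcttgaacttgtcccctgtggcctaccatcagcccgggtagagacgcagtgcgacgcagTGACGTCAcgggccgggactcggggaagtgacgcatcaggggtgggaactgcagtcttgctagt
Uqcrc1 held GCGCATGCG, a motif of NRF1, a regulator known for respiratory genes, on both strands at bases 281 and 282 of the window. Ndufs4 held AAGATGGCG, a motif of YY1, at base 286, and Ndufb2 held TGACGTCA, the cAMP response element, at base 237. Exact matches on either strand were counted, and overlaps between motifs were allowed. The NRF1 motif was in 11 of the 74 promoters (14.9%), in 3.82% of those of all genes tested and in 1.95% of all promoters. For the YY1 motif these shares were 12.2%, 3.25% and 1.64%, and for the cAMP response element 6.76%, 3.56% and 2.03%. CCGGAAGT, the ETS motif that GABPA binds, was in 6.76%, 8.30% and 4.31%. Any of these 4 motifs was in 27 of the 74 promoters, and the promoter of Sdhb, also separated upward, held none. The 11 genes with the NRF1 motif ran from -0.24 (Ndufaf5) to 0.19 (Atp5k) in log2 fold change. A match is a run of letters and says nothing of binding in these islets.

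Genes around the respiratory chain gave 0 calls in each of 9 lists, where 0.0617% of all 16212 genes tested were called. At that share, lists of this size would give few calls or none. Assembly factors of the complexes numbered 36, with 18 higher and 18 lower and a median of -0.0049. Cox16, which helps to assemble complex IV, was at 22.8 and 20.9 RPM against 22.8 to 28.0 RPM (0.24, limma adjusted p 0.391), and Nubpl, which delivers iron-sulfur clusters to complex I, at 3.09 and 2.98 against 2.74 RPM or less (-0.34, limma adjusted p 0.461). The 19 genes of mitochondrial genome maintenance and transcription had a median of 0.01, with 10 higher. Among them Mterf4, which acts in mitochondrial ribosome assembly, had a log2 fold change of 0.31 and Tfam, which packages mitochondrial DNA and starts its transcription, one of 0.17. Mitochondrial RNA processing had 10 of 16 higher and a median of 0.05, with Slirp, which stabilises mitochondrial messenger RNAs, at 0.15 and Pnpt1, an RNA-degrading enzyme, at -0.19.

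The 10 nuclear regulators of respiratory genes had 3 higher and 7 lower, with a median of -0.04. Pprc1, a coactivator related to PGC-1, was at 34.7 and 33.2 RPM against 35.3 to 45.5 RPM (0.25, limma adjusted p 0.336), with all KO libraries above both controls. Hcfc1, a transcriptional cofactor, had a log2 fold change of -0.19. The 18 citric acid cycle genes had 10 higher and a median of 0.01, with Fh1, fumarase, at 0.23 and Pcx, pyruvate carboxylase, at -0.13. The 78 mitochondrial ribosomal proteins had 55 higher and a median of 0.06. Of them 6 were separated upward (7.69%, against 6.75% of all genes tested), and Mrps30 (0.26) and Mrpl33 (0.27) had the smallest p-values. Their median deviation was also highest in KO 5, at 0.19.

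The smallest adjusted p in the 9 lists belonged to Gpd2, the mitochondrial glycerol-3-phosphate dehydrogenase that passes electrons to coenzyme Q. It stood at 37.3 and 42.0 RPM in the controls and at 58.4, 55.7, 52.8, 62.2 and 46.9 RPM in KO. All KO libraries were above both controls, and the log2 fold change was 0.46 (SE 0.10, limma adjusted p 0.116). The 15 genes of its list, electron supply and coenzyme Q, had 9 higher and a median of 0.02, and Coq3, of coenzyme Q synthesis, was at 0.33. Among 8 carriers and porins, 4 were higher and the median was 0.04. Ucp2, an uncoupling protein that limits insulin release in beta cells, was at 143 and 163 RPM against 118 to 132 RPM (-0.28, SE 0.07, limma adjusted p 0.172). Vdac1, the main porin of the outer membrane, was at 78.5 and 76.1 RPM against 62.9 to 76.1 RPM (-0.18, limma adjusted p 0.423). KO libraries lay below both controls for each, barely so in KO 5 for Vdac1. The 8 tested genes of the cristae had 4 higher and a median of 0.01, with Opa1, which fuses inner membranes, at -0.13 and Chchd6 of the MICOS complex at 0.19.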

How the data were processed

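RNA from whole islets was polyA-selected and made into libraries with a directional kit, per the labels' protocols. HISAT2, DESeq2 and GRCm38 appear in the submitters' processing notes, with no version or role. The counting software, its strand setting and the annotation release: not given in the sources used here. Per gene and library, the authors deposited log2 values. Raised from log2 they were whole multiples of 1 step per library for 99.9% of values or more, so a step was taken as 1 read, and reads and depth-scaled reads (RPM) were recovered. A second deposited table of the authors holds selected genes with log2 group means, a fold (ratio) and a corrected p-value, and was used to look up the 101 genes.

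Genes with 10 reads at the median depth (0.366 RPM) in 2 or more libraries were tested. KO was set against Control on log2(RPM + 1) with limma 3.58.1 (R 4.3.3) and an intensity trend, without covariates, two-sided, with Benjamini-Hochberg adjustment over all 16212 genes at 0.05. A planned count test by edgeR's quasi-likelihood and another by DESeq2 were not run. Trimmed-mean and median-ratio scalings were computed from the recovered reads with code written for this work, and voom was run on those reads. Scripts were tested on simulated data. Transcript lengths are those of the shortest principal transcript in GENCODE M21. Intervals of fold changes come from the limma fit and reflect the spread between libraries, while the limit of 3 reads covers counting error only.

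Groups came from the sample titles. Nothing in the labels ties mice to litters or days. The p-values thus measure the spread among 7 libraries, which may be partly technical. The genes and lists were chosen with earlier results of these data known, and the motifs, the length and copy classes and the comparison of females with males after the data were seen. Named genes were Uqcrc1, all mitochondrial genes, the 12 nuclear genes with the smallest p, the 5 largest differences in each direction with a mean of 20 reads or more, the 5 nuclear genes with the most reads per kilobase, isoform pairs, genes next to the level, and the 2 smallest p in each other list. Others (Sdha, Sdhb, Cycs, Atp5s, Atp5sl) were chosen after their values were seen. Plots were drawn with matplotlib 3.10.9.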

Additional observations from a re-analysis of the deposited data

Results flagged for a closer look

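In the KO group, mt-Co1 stood at 2616 RPM in KO 1, apart from the other 4 KO libraries at 2919 to 3038 RPM. Its distance to the nearest library was 0.718 of the range of the group, just over the critical value of 0.71 for 5 samples. Levels of 66 genes and sums were examined this way, and chance marks about 1 in 20 groups.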

How the results depend on the processing

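No oxidative phosphorylation gene was called under any of the 22 other settings tried, and 24 of the 39 named genes tested kept their sign throughout. The nuclear median stayed between 0.03 and 0.24, the latter with the acinar covariate, and the genome ratio between -0.27 and -0.09. The counts of calls over all genes (7 higher, 3 lower) varied. They were 12 and 7 with trimmed-mean scaling, 13 and 7 with median-ratio scaling, and 8 and 6 when scaled to listed gene reads, with or without the mitochondrial genome. They were 3 and 1 with no filter, 24 and 18 with robust moderation, 3 and 0 with sex as a covariate, 0 and 0 with the acinar covariate, and 41 and 6 without KO 2 and KO 3. A pseudocount of 5 gave 4 higher, voom 5 lower and males alone 6 lower. With the sex or acinar covariate and in males, 5 of 13 mitochondrial genes were below 0. The sex covariate and males alone give the same fold changes by design, since both females were KO. The causes were not tested.

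Leaving out single libraries gave 2 to 32 higher and 0 to 88 lower calls, with 32 and 88 without Control 1, which leaves 1 control. The nuclear median ran from 0.03 to 0.10 with 59 to 71 genes above 0, the mitochondrial median from -0.11 to -0.03 with 7 to 10 below 0, and the ratio from -0.21 to -0.12. The named genes whose sign turned ran as follows on the log2 scale: Cox7b from -0.037 to 0.059, Ndufa4l2 from -0.060 to 0.17, mt-Nd1 from -0.14 to 0.025, mt-Atp6 from -0.071 to 0.0035, mt-Nd3 from -0.040 to 0.11, mt-Nd4 from -0.16 to 0.038, mt-Cytb from -0.20 to 0.0024, Atp5b from -0.022 to 0.089, Atp5a1 from -0.013 to 0.085, Cox6a2 from -0.19 to 0.018.

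Uncalled genes also turned to these values. With sex as a covariate and in males they were mt-Nd1 0.012, mt-Nd2 0.073, mt-Atp6 0.024, mt-Nd4 0.089, mt-Cytb 0.022. With the acinar covariate they were mt-Nd1 0.15, mt-Nd2 0.26, mt-Nd4 0.13, mt-Nd6 0.079, mt-Cytb 0.059, Ndufaf3 0.14. Without KO 2 and KO 3 they were mt-Nd2 0.028, mt-Nd6 0.0051. Scaled to listed gene reads Cox7b was at -0.0080, or -0.0099 without the mitochondrial genome, and with voom Ndufa4l2 was at -0.059.

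With the replicate number as a block, 6 genes were called higher and 5 lower, the nuclear median was 0.04 (56 above 0), the mitochondrial median -0.17 and the ratio -0.27, and the genes that turned were mt-Nd3 -0.061, Uqcrq -0.0065, Cox7b -0.019, Cox8a -0.012. Same-numbered libraries deviated with correlations of -0.099 and -0.24. With only 2 controls, the deviations of Control 2 are those of Control 1 with the sign turned. These correlations therefore cannot show whether the numbers mark pairs. Planned edgeR and DESeq2 tests were not run. Low genes were limited by depth, with Ndufa4l2 at 6 to 22 reads.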

Other observations

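The protein-coding gene of the opposite mitochondrial strand, mt-Nd6, stood in a different ratio to its neighbour mt-Nd5 in different libraries. The log2 ratio of mt-Nd6 to mt-Nd5 was -1.67 and -1.68 in Control 1 and Control 2, whereas KO 1 to KO 5 had values of -1.38, -1.36, -1.68, -1.75 and -1.34. KO 1, KO 2 and KO 5 thus lay apart from the controls, and KO 3 and KO 4 lay at or below them. The strand setting of the counting is not given in the sources used here, and these genes overlap in their last bases.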
